A study of Mus musculus with 6 samples.

Results

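The plasminogen activation system was followed in B16-F1, a line of the B16 melanoma of the C57BL/6 mouse, and in D5.1G4, a second mouse melanoma line that serves as the point of comparison in the series. Its 7 genes, Plau, Plat, Plg, Plaur, Plgrkt, Serpine2 and Serpinb2, were found by matching the accession of each probe to a gene symbol, and each had 1 probe, so they made up 7 of 39429 probes and 7 of the 20659 genes with a probe. RNA was taken from untreated cells of both lines 24 h after 1000000 cells had been seeded per well in RPMI-1640 with 10% fetal bovine serum, at a confluence of 75% to 95%. Each line was measured on 3 one-colour Agilent arrays. Whether the 3 replicates of a line came from separate cultures is not stated in the labels, so a p-value speaks only of the spread from array to array, which may be technical. Values of a line are listed in the order of its replicates 1, 2 and 3.

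Plasmin is a broad serine protease that dissolves fibrin and degrades matrix proteins around cells. It is cut from plasminogen (Plg), a zymogen made mainly by the liver, by urokinase (Plau) or by tissue-type plasminogen activator (Plat). The urokinase receptor (Plaur) and the plasminogen receptor Plg-RKT (Plgrkt) hold the reaction at the cell surface, and the serpins Serpine2 (protease nexin-1) and Serpinb2 (plasminogen activator inhibitor 2) block the activators. In tumours the system is known for its part in invasion.

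Of the 7 genes, 3 were well above background on all 6 arrays (Plat, Plaur and Plgrkt) and 4 on no array (Plau, Plg, Serpine2 and Serpinb2). The same split held in both lines. Over all 20659 genes, 54.1% were well above background on every array and 26.0% on none. None of the 3 detected genes was called between the lines at the threshold of the series text, a fold of at least 2 with p of 0.05 or less, here adjusted. Limma called 0 of the 3, and the lowest unadjusted p among them was 0.0542, for Plgrkt. The call rule took 15.2% of the 18454 features in the fit (1159 with a higher and 1642 with a lower level in B16-F1). With only 3 genes tested, a count of 0 does not set them apart from that share. Levels are given as the log2 of the signal minus the 75th percentile of the array, so that 0 marks that percentile, and differences are B16-F1 minus D5.1G4 on this log2 scale.

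**Figure D1:**
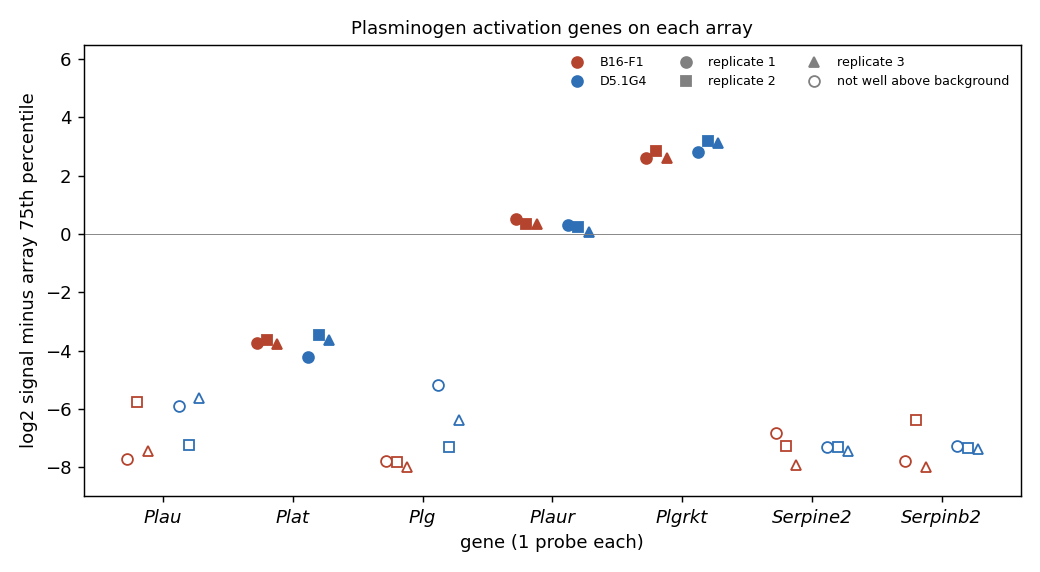
Level of each gene on each array, as log2 signal minus the 75th percentile of the array. B16-F1 arrays stand left of D5.1G4 arrays for every gene, symbols mark replicates, and open symbols mark spots not well above background. Plat, Plaur and Plgrkt were detected on all 6 arrays, and the points of the lines lie close together for each of them.

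Across the arrays, 53.4% to 62.0% of the spots were well above background and their 75th percentiles of signal spanned 838.9 to 2034.6. Arrays that share a scan time were taken as 1 slide, an inference from the scan times alone. By this rule B16-F1 replicates 2 and 3 lay on slide 1, B16-F1 replicate 1 and D5.1G4 replicates 2 and 3 on slide 2, and D5.1G4 replicate 1 alone on slide 3, so only slide 2 compares the lines directly. Of the melanocyte markers Mitf, Sox10, Tyr, Tyrp1, Dct, Mlana and Pmel, 7 of 7 were well above background on all arrays. Among markers of other cell types this held for 0 of 4 of fibroblasts, 1 of 3 of macrophages, 2 of 4 of endothelial cells and 2 of 2 of keratinocytes, and none of the tested markers was called. By adjusted p alone Tyr (0.78, adjusted p = 0.00578) and Mlana (-0.68, adjusted p = 0.0247) passed, and a second Tyr probe was called higher in B16-F1 with every probe tested (1.64, adjusted p = 0.00645). In RNA of whole cultures, fewer cells that express a gene and less RNA per cell cannot be told apart.

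The activators were represented by Plat alone. Plat (chromosome 8) stood at -3.72, -3.64 and -3.77 in B16-F1, against -4.22, -3.45 and -3.62 in D5.1G4. The B16-F1 values fell inside the range of the D5.1G4 values. Its processed signals, at 109.1, 108.9 and 148.7 in B16-F1 and 98.1, 76.8 and 79.7 in D5.1G4, lay well under the 75th percentile of each array. The means were -3.71 ± 0.07 in B16-F1 and -3.76 ± 0.41 in D5.1G4 (SD, n = 3 each). The difference was 0.05 (SE 0.21, 95% interval -0.47 to 0.57, adjusted p = 0.874), an interval that leaves room for about 1.49-fold higher or 0.722 times the D5.1G4 level. Its sign turned without D5.1G4 replicate 1, the lowest array (-0.18, adjusted p = 0.294), and within slide 2 (-0.19, adjusted p = 0.464).

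Urokinase itself was not detected. Plau (chromosome 14) read -7.73, -5.78 and -7.46 in B16-F1, against -5.92, -7.24 and -5.62 in D5.1G4, none of them well above background. These correspond to processed signals of 6.80 to 24.8 in B16-F1 and 5.53 to 30.4 in D5.1G4. Plg (chromosome 17), the zymogen, read -7.78, -7.81 and -8.00 in B16-F1 and -5.19, -7.31 and -6.40 in D5.1G4. The 3 D5.1G4 values of Plg lay above the 3 B16-F1 values, but no spot was well above background in either line, so the order gives no fold. The lowest level of any probe called well above background was -7.05, -7.23 and -7.40 in B16-F1 and -6.61, -6.67 and -6.75 in D5.1G4, so it lay higher in D5.1G4 on this scale. Some undetected spots, such as that of Plg on D5.1G4 replicate 1, lay above this level and were still not marked as well above background.

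Both receptors were expressed in both lines. Plaur (chromosome 7), which anchors urokinase to the membrane, stood at 0.50, 0.34 and 0.35 in B16-F1, against 0.31, 0.23 and 0.07 in D5.1G4. Every B16-F1 array was above every D5.1G4 array, which also held in either direction for 50.7% of the features measured on all 6 arrays. The closest arrays, B16-F1 replicate 2 and D5.1G4 replicate 1, were almost level. Plaur averaged 0.40 ± 0.09 in B16-F1 and 0.21 ± 0.12 in D5.1G4 (SD, n = 3 each). The difference of 0.19 (SE 0.12, 95% interval -0.10 to 0.48) is 1.14-fold and did not pass the test (adjusted p = 0.261). Within slide 2 it was 0.35 (adjusted p = 0.22). The interval reaches 1.39-fold, which is under the minimum fold.

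Plgrkt (chromosome 19), a membrane protein whose carboxy-terminal lysine binds plasminogen, was the detected gene with the lowest p of the 3. It stood at 2.61, 2.84 and 2.61 in B16-F1, against 2.81, 3.18 and 3.13 in D5.1G4. The lines overlapped through B16-F1 replicate 2 and D5.1G4 replicate 1 only, and the other 2 arrays of each line were apart. The means were 2.69 ± 0.13 in B16-F1 and 3.04 ± 0.20 in D5.1G4 (SD, n = 3 each). The difference was -0.35 (SE 0.15, 95% interval -0.71 to 0.01, adjusted p = 0.119), which is 0.785 times the D5.1G4 level. It was -0.54 within slide 2 (adjusted p = 0.092). Without D5.1G4 replicate 1 it was -0.46 with an adjusted p of 0.0461, still short of the minimum fold.

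**Figure D2:**
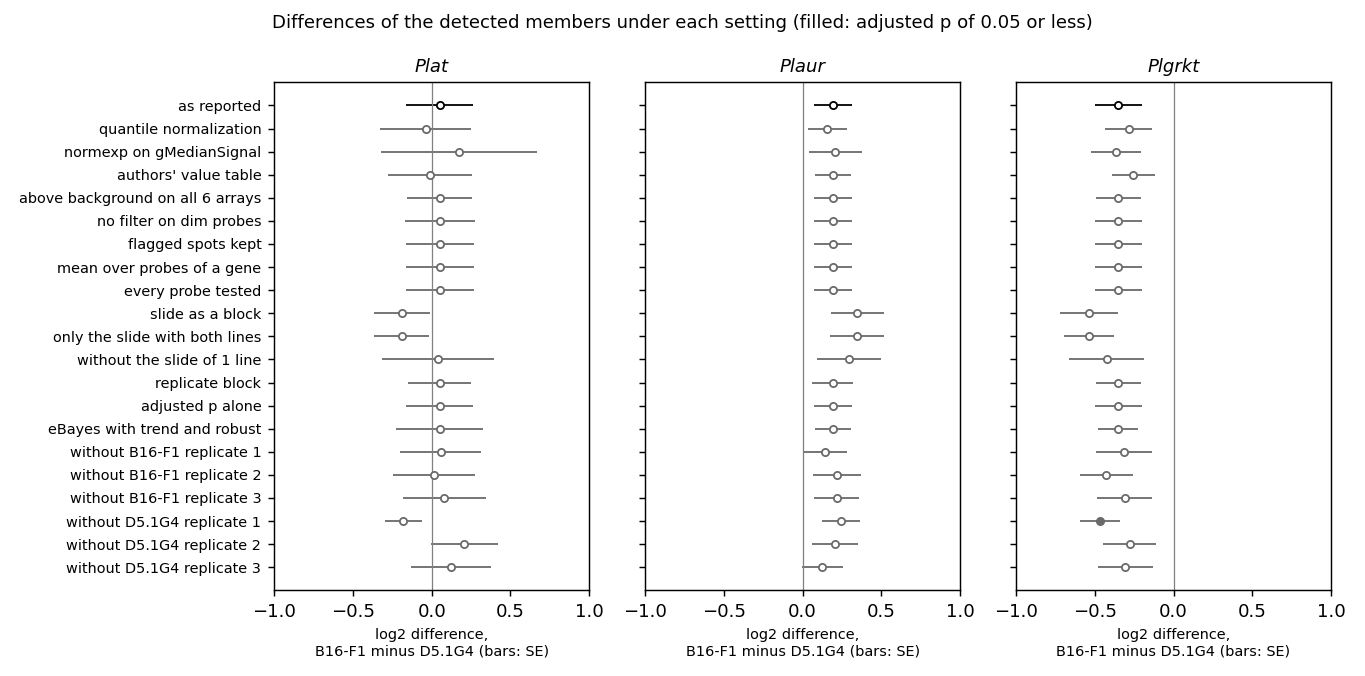
Log2 difference of Plat, Plaur and Plgrkt, B16-F1 minus D5.1G4, as reported and under each alternative setting, with bars for the SE and filled points for an adjusted p of 0.05 or less. Plaur stayed above 0 and Plgrkt below 0 in every setting shown, Plat lay on both sides of 0, and 1 setting, Plgrkt without D5.1G4 replicate 1, has a filled point.

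Promoter windows of 300 bases, from 250 before to 50 after the start of a transcript, were in the RefSeq table (GRCm38.p6, not the build of the array annotation) for 4 of the 7 genes. They are shown to set the sequence upstream of both detected receptors beside that of the serpins that were not detected. Capitals mark matches, on either strand, to 4 motifs. The TATA box, written TATAAA, was in 13.6% of all 32851 windows. The GC box, written GGGCGG, whose matches may overlap each other, was in 35.7%. The AP-1 site, written TGANTCA, through which the genes of urokinase and its receptor are known to respond to growth signals, was in 7.81%. An E-box bound by MITF, the melanocyte regulator, written CATGTG, was in 14.2%. The Plaur window is chr7:24462233-24462532 on the plus strand and that of Plgrkt chr19:29361822-29362121 on the minus strand.
Plaur: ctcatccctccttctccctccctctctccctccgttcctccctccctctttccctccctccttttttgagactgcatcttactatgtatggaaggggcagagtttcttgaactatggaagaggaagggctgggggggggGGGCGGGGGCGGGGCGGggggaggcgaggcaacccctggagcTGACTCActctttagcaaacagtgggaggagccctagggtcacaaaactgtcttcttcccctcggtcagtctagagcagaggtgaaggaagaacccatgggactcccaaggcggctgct
Plgrkt: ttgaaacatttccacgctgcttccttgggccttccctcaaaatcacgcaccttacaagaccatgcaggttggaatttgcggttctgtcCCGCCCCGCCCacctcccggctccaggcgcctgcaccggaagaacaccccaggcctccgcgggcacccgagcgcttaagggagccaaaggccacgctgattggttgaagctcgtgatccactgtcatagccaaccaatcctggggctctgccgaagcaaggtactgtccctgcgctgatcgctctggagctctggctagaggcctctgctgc
The Plaur window held 3 GC boxes, at -111, -105 and -100 from the start, of which the last pair overlap, and 1 AP-1 match at -69. The Plgrkt window held 2 GC boxes on the opposite strand, at -162 and -157. Neither held the TATA box or the E-box letters. CpG dinucleotides numbered 7 in Plaur and 17 in Plgrkt, where the median over all windows was 7 and the quartiles 3 and 20. The array measures RNA only, so a match is a description of these letters.

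The inhibitors among the 7 genes were not detected. Serpine2 (chromosome 1) read -6.82, -7.29 and -7.92 in B16-F1, against -7.30, -7.30 and -7.45 in D5.1G4. Serpinb2 (chromosome 1) read -7.81, -6.40 and -8.01 in B16-F1, against -7.28, -7.35 and -7.38 in D5.1G4. For both genes the B16-F1 arrays lay on either side of the D5.1G4 arrays and no spot was well above background, so no fold is given. Their promoters differ in composition. The windows are chr1:79858616-79858915 on the minus strand for Serpine2 and, for the first of the 2 Serpinb2 windows in the table, chr1:107511173-107511472 on the plus strand.
Serpine2: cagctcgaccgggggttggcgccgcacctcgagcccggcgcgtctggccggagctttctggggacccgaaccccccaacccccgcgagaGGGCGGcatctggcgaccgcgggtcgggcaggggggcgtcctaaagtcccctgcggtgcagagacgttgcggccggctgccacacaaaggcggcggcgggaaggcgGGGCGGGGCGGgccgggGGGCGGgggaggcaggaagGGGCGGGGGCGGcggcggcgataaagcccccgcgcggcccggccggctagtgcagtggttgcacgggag
Serpinb2: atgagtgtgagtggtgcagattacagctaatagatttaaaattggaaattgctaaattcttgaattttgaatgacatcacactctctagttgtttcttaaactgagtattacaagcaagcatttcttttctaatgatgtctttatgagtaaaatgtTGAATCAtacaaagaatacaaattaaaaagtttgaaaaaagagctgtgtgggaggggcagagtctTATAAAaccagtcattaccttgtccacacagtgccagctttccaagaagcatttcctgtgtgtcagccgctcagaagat
Serpine2 had a GC-rich window (77.7% G or C, 41 CpG) with 6 GC boxes and no match to the other motifs. Serpinb2 had an AT-rich one (35.3% G or C, 1 CpG) with a TATA box at -29 and an AP-1 match at -94. AP-1 letters were in the windows of Plaur and Serpinb2, and GC boxes in those of Plaur, Plgrkt and Serpine2. G or C made up 59.3% of the Plaur window and 60.7% of the Plgrkt window. Whether these letters bear on detection was not tested.

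A wider list of 42 genes of the plasmin system, in which each gene had a probe, gave 23 tested genes. In B16-F1 the level of 2 of them was called higher and that of 3 lower (background 6.28% higher and 8.9% lower). One of the lower calls, Fn1, rests on 1 D5.1G4 array. Their median difference was 0.0026, against -0.0041 over all features tested. By adjusted p alone 10 passed, 2 higher and 8 lower, where 34.9% of all features did. On no array were 14 of the 42 genes well above background, among them the fibrinogen chains Fga and Fgb, vitronectin (Vtn), Mmp3 and Mmp9.

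**Figure D3:**
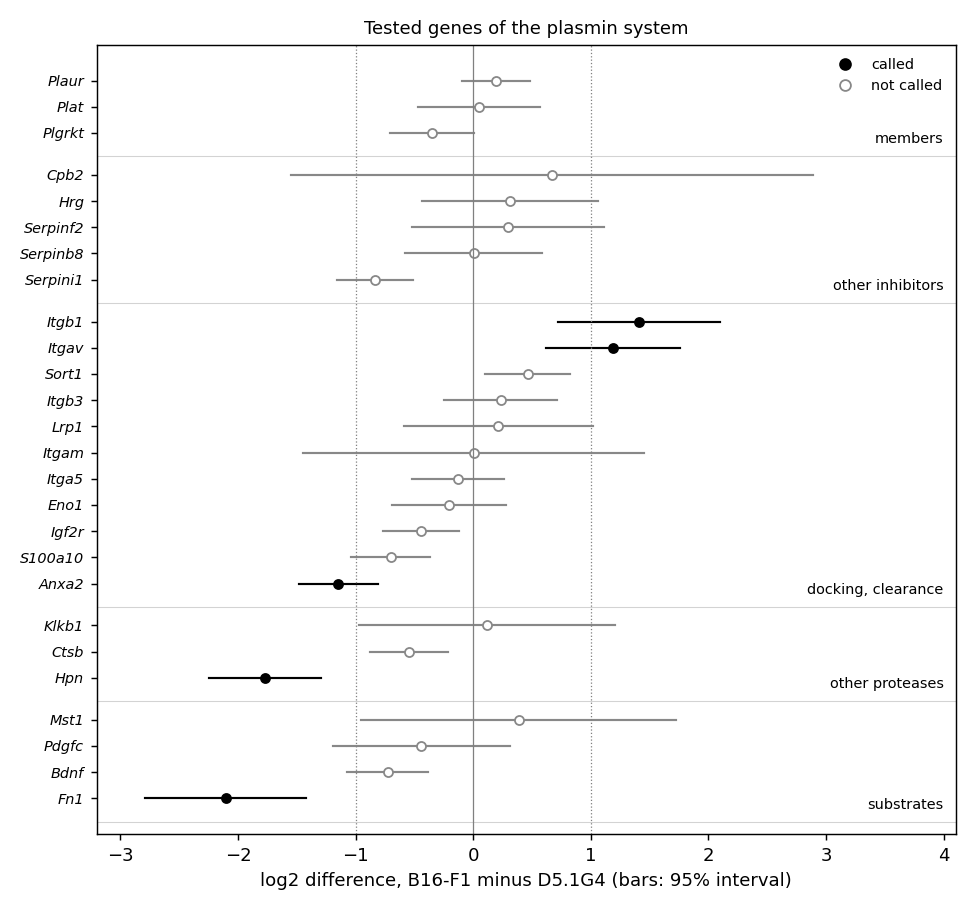
Log2 difference, B16-F1 minus D5.1G4, with 95% interval for the 3 tested members and the 23 tested genes of the wider list, by role. Dotted lines mark the minimum fold of 2, and filled points mark called genes. Serpinf2 was well above background in B16-F1 only. Itgb1 and Itgav lie to the right and Anxa2, Hpn and Fn1 to the left, while the 3 members lie near 0.

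None of the 8 further inhibitors was called (5 tested). Among those tested, Serpinf2 was well above background on all 3 B16-F1 arrays and on no D5.1G4 array. It passed the filter through B16-F1 alone, so its value of 0.29 is not a measured difference. Serpini1, neuroserpin, an inhibitor of Plat best known from neurons, was lower in B16-F1 below the minimum fold (-0.83, SE 0.13, adjusted p = 0.00503). Slide 2 alone gave -0.64 (adjusted p = 0.0661). Normexp, which here added an offset of 50 to every signal, gave -0.19 (adjusted p = 0.837). An offset of this size shrinks log2 differences of dim spots. The Serpini1 signals were 56.6 to 95.8 in B16-F1 and 72.7 to 153.1 in D5.1G4. When its probes were averaged, Serpini1 passed the minimum fold (-1.07, adjusted p = 0.00544). That average takes in a second probe that was well above background on no array, so it adds no measured difference.

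Among 16 genes for docking and clearance (11 tested), Anxa2 fell and Itgav and Itgb1 rose. Annexin A2 (Anxa2) and its partner S100a10 form a complex that binds plasminogen and Plat at the cell surface. Anxa2 stood at 4.30, 4.02 and 3.94 in B16-F1, against 5.12, 5.31 and 5.28 in D5.1G4, with no overlap. The B16-F1 level was 2.21-fold lower (-1.15, SE 0.14, adjusted p = 0.00175). The Anxa2 difference was just short of the minimum fold with slide as a block (-0.99), with quantile normalization (-0.98) and with the authors' values (-0.96). The same held within slide 2 (-0.99) and without the arrays of slide 1 (-0.93), both of which leave 1 B16-F1 array. S100a10 stood at 3.70, 3.68 and 3.40 in B16-F1, against 4.29, 4.42 and 4.17 in D5.1G4. Its difference of -0.70 (SE 0.14, adjusted p = 0.0103) is below the minimum fold, and within slide 2 it was -0.59 (adjusted p = 0.108). For both partners every B16-F1 array lay below every D5.1G4 array, where 50.7% of features do not overlap in one direction or the other.

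Integrins act with the urokinase receptor in adhesion to the matrix. Itgav, the alpha v chain, rose by 1.19 (SE 0.23, adjusted p = 0.0106) at -0.68, -0.56 and 0.02 in B16-F1, against -1.30, -1.66 and -1.82 in D5.1G4. A second Itgav probe gave -0.05 (adjusted p = 0.759 with every probe tested), so the 2 probes disagree. Itgb1, the beta 1 chain, rose by 1.41 (SE 0.28, adjusted p = 0.0112) at 2.09, 1.98 and 2.97 in B16-F1, against 1.10, 0.96 and 0.74 in D5.1G4. A dimmer Itgb1 probe, well above background on 1 D5.1G4 array, gave 2.02 and was not called (adjusted p = 0.149 with every probe tested). The Itgb1 call was lost when its probes were averaged (adjusted p = 0.0758) and with normexp (adjusted p = 0.0578). B16-F1 replicate 3 was the highest array for both genes. Without it Itgav was 0.97, and with slide as a block the adjusted p was 0.0673 for Itgav and 0.117 for Itgb1. Within slide 2 the differences were 1.06 for Itgav and 1.24 for Itgb1.

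The endocytic receptors Lrp1 and Vldlr clear complexes of urokinase with its inhibitors. Lrp1 stood at -3.07, -2.88 and -3.05 in B16-F1, against -2.77, -3.98 and -2.87 in D5.1G4. Its difference of 0.21 (SE 0.33, adjusted p = 0.65) rested on D5.1G4 replicate 2, the lowest array, without which it was -0.17. Vldlr was named after its values were seen. Its brighter probe was measured at 2.40 and 2.20 on B16-F1 replicates 2 and 3, against -7.19, -7.27 and -7.39 in D5.1G4, where no spot was well above background. The spot of B16-F1 replicate 1 was marked as an outlier and left out, so the probe missed the filter of 3 arrays and was not among the features tested. Against the lowest detected level of each D5.1G4 array, Vldlr was 503-fold higher by this probe on the 2 measured B16-F1 arrays. A dimmer probe, at -2.49, -1.96 and -2.04 in B16-F1 against -6.89, -7.32 and -7.40 in D5.1G4, gave 22.8-fold higher by the same rule. No test is given for either probe, since neither was above background in D5.1G4 and the gene was chosen by its values. For each fold, D5.1G4 values below the lowest level detected on their array were raised to that level before the means were compared. Some undetected D5.1G4 spots lay above that level, so neither fold is a lower limit.

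**Figure D4:**
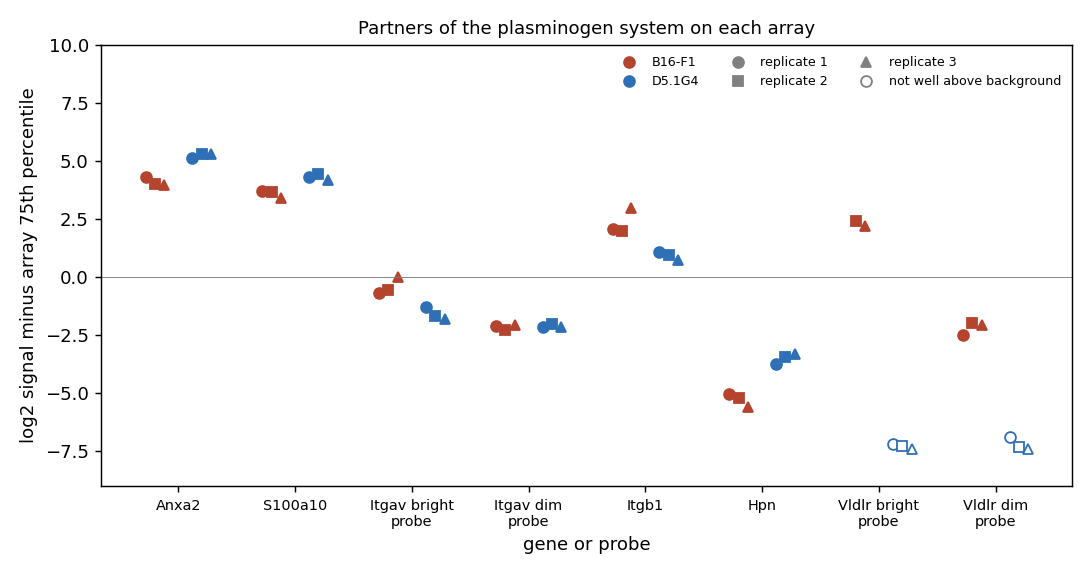
Level of selected partner genes on each array, as log2 signal minus the 75th percentile of the array, B16-F1 left of D5.1G4. Symbols mark replicates and open symbols spots not well above background. Both Vldlr probes are well above background in B16-F1 only, the 2 Itgav probes disagree, and Anxa2, S100a10 and Hpn are lower on every B16-F1 array.

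Of the 6 further proteases (3 tested) Hpn fell. Hpn encodes hepsin, a transmembrane serine protease that can activate urokinase. It stood at -5.01, -5.22 and -5.60 in B16-F1, against -3.74, -3.45 and -3.32 in D5.1G4, 3.41-fold lower (log2 difference -1.77, SE 0.19, adjusted p = 0.00128). Within slide 2 it was -1.62 (adjusted p = 0.0141). The spots were dim, at signals of 36.5 to 44.7 in B16-F1 and 76.5 to 137.4 in D5.1G4. With normexp background correction the call was lost (-0.46, adjusted p = 0.706). The offset of 50 in that setting exceeds these B16-F1 signals and shrinks the difference by itself, so the lost call decides nothing. Cathepsin B (Ctsb), a lysosomal protease that can also cut urokinase to its active form, was lower below the minimum fold (-0.54, SE 0.14, adjusted p = 0.0252). Its adjusted p was 0.05 or less in 10 of 20 alternatives, and the difference was -0.24 with quantile normalization (adjusted p = 0.133) and -0.68 within slide 2 (adjusted p = 0.0642).

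Of the 12 substrates (4 tested) Fn1 was called lower. Fn1, fibronectin, a matrix protein that plasmin cleaves, stood at 2.34, 2.16 and 1.87 in B16-F1, against 4.23 on D5.1G4 replicate 1, the 1 D5.1G4 array whose spot was not marked (-2.10, SE 0.25, adjusted p = 0.00587). The lone D5.1G4 array gives no spread of its own, and the test assumes that it varies like B16-F1. Without the arrays of slide 1 the call was lost (-1.89, adjusted p = 0.068), and slide 2 alone gives no value because both of its D5.1G4 spots were left out. With marked spots kept, the signals were 7291, 6090 and 7453 in B16-F1, against 34380, 13530 and 15368 in D5.1G4, and the difference was -1.95 (SE 0.16, adjusted p = 0.000446). Bdnf, whose precursor plasmin can cleave, was lower below the minimum fold (-0.73, SE 0.14, adjusted p = 0.00994). The adjusted p was 0.0939 with slide as a block and 0.338 with normexp (-0.47). For Mst1, the probe that stood for the gene gave 0.39 (adjusted p = 0.621). A second Mst1 probe read -6.35, -5.92 and -7.43 in B16-F1, against -4.64, -4.86 and -4.23 in D5.1G4. It was well above background on every D5.1G4 array and on no B16-F1 array, so no test is given for it. The 2 Mst1 probes thus disagree.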

How the data were processed

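The authors deposited the scanner output of 6 arrays, with spot intensity on a linear scale made by version 11.0.1.1 of the Agilent Feature Extraction software; background was subtracted and trends within the array removed, and low values hold a surrogate, per the file headers. Log2 values that the authors processed were also deposited, by a normalization not given in the sources used here. They were used as an alternative only; each column correlated with its own array at r of 0.9995 or more.

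The log2 of the processed signal was taken and the 75th percentile over non-control spots subtracted. Spots marked non-uniform or outlier, between 0.674% and 1.58% per array, were left out, and the remaining spots of a probe averaged; none was saturated. Accessions were matched without version to the RefSeq table of GRCm38.p6 for 27234 probes (69.1%). The array annotation is on mm9, per the file headers, and no probe coordinates are given. The probe with the highest mean stood for a gene, and a feature was tested if well above background on at least 3 arrays. Groups and replicate numbers came from the titles.

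Lines were compared with limma 3.58.1 in R 4.3.3, 2-sided, with no term besides the line. P-values were adjusted over all features by Benjamini-Hochberg, and a call needed an adjusted p of at most 0.05 and a minimum fold of 2. Every adjusted p is from limma. The fit was tested on simulated data. The genes and lists were chosen with earlier results of these data known. All 7 genes, each called gene of the wider list and Anxa2, S100a10 and Lrp1 were named by rule; others were named after their values were seen. A further gene of the list is not reported here. The rule to name genes most like the called gene with the largest difference found none, as no member was called. Normexp, with an offset of 50, was run on the median signal, chosen after seeing that the files hold no mean signal. The other alternatives are listed in the closing section. The number of arrays limits precision.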

Additional observations from a re-analysis of the deposited data

How the results depend on the processing

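None of Plat, Plaur and Plgrkt was called under any of the 20 alternatives, though Plgrkt had an adjusted p of 0.0461 without D5.1G4 replicate 1. The alternative without a filter on dim probes tested all 7 members and called none. For the members that were well above background on no array it cannot measure a difference, so that outcome says nothing about them. The range over alternatives was 0.13 to 0.35 for Plaur, with adjusted p from 0.183 to 0.543, and -0.54 to -0.25 for Plgrkt, with adjusted p from 0.0461 to 0.303. Plat turned its sign with quantile normalization (-0.039), the authors' values (-0.012), slide as a block and slide 2 alone (-0.19 each), and ran from -0.18 to 0.21 when 1 array was left out. Of the named genes of the wider list, Lrp1 ran from -0.17 to 0.43 when 1 array was left out, the lowest without D5.1G4 replicate 2. The number of genes called in the wider list (5) was 3 with normexp, 3 with slide as a block, 2 without the arrays of slide 1, 3 with a replicate block and 10 by adjusted p alone, and 4 to 5 when 1 array was left out. The count with slide as a block takes in Fn1, for which line and slide cannot be told apart. Over all features 1250 were called with normexp and 6436 by adjusted p alone, against 2801 in the comparison reported. The cause was not tested. Replicate numbers did not pair the arrays: deviations from the line means correlated across features at -0.39, -0.03 and -0.30 for numbers 1, 2 and 3, and no array correlated best with its own number. The replicate block gave 2580 calls and an adjusted p of 0.16 for Plgrkt. Normexp on the mean signal was not run because the files hold no such column. Plau, Plg, Serpine2 and Serpinb2 are limited by their signal over background: no spot was well above it, so no difference is measured.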
